A study of Mus musculus with 8 samples.

Results

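Adipocyte-transcript-rich droplets were examined in the stromal vascular fraction (SVF) of mouse subcutaneous white adipose tissue (sWAT), profiled by droplet single-cell RNA-seq. A droplet was a member when UMIs of Adipoq, Car3, Cfd and Cidec together made up at least 2% of its UMIs, at least 1 UMI came from Adipoq or Cidec, and no UMI came from Pecam1, Ptprc or Pdgfra. A UMI (unique molecular identifier) stands for 1 captured RNA molecule. Of 36370 barcodes kept with 700 to 30000 UMIs, 200 to 8000 genes and at most 10% mitochondrial UMIs, 987 met this definition. The deposited matrices held 44427 barcodes in all. The droplets were thus chosen by the measured UMIs of these 7 genes, so the levels of those genes and the contrast with other barcodes are description and carry no test. Depth, gene number and mitochondrial share, also limited in this choice, are likewise given as description.

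The study asked what timed feeding does to the cells of sWAT. All mice were C57BL/6 in the labels and C57BL/6J in the study, with no other genotype given, and the libraries fell into 2 groups of 4 by feeding schedule, Ad-Lib (replicates 1, 3, 5 and 7, food always present) and twice-a-night feeding (TAN, replicates 2, 4, 6 and 8). According to the labels the mice were 8 weeks old. The text of the study instead has the SVF from 7-month-old males kept on these schedules for 5 months, on regular diet. Which age the labels refer to is not said, so the age is uncertain. The study counts 4 mice in each group and treats each library as an animal replicate. It fed TAN mice in 2 windows of the dark phase. Its methods place tissue collection in the dark phase after the first window, with no separate time for these libraries. Time since the last meal was thus tied to the schedule, and the 2 were not separated.

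White adipocytes store energy as triglyceride in 1 large lipid droplet, take up fatty acids and glucose after meals, and release fatty acids through lipolysis between meals. When carbohydrate is plentiful they also build fatty acids from acetyl-CoA, a pathway called de novo lipogenesis that insulin turns on. Mature adipocytes float and are removed when digested fat is spun down, so the SVF pellet is meant to hold the other cells of the tissue: progenitors, endothelial cells, pericytes and immune cells.

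Library depth ranged from 25320800 to 37140950 UMIs, and the droplets of a library summed to between 71471 (TAN 6) and 205407 (TAN 4) UMIs. TAN 6 stood apart, with the fewest droplets (61) and 1615 other barcodes under 2000 UMIs where the other 7 libraries had 606 to 713. The libraries shared 252 barcode sequences, 9 of which were the sequence of a member droplet that recurred in another library, and no sequence was a member in more than 1 library.

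The droplets were shallow and held transcripts of many adipocyte genes. Their median depth was 1046 UMIs (range 700 to 3793) and 528 genes, against 5180 UMIs and 1823 genes for the other kept barcodes, and 904 of the 987 lay under 2000 UMIs. No droplet was among the 1351 kept barcodes with the highest simulated-doublet scores. All 15 adipocyte markers were present in them, but the 4 selected genes, which are high by definition, alone gave 4.40% of their UMIs. The other 11 markers made up 0.777% of droplet UMIs, compared with 0.0152% in other kept barcodes and 0.0579% in other kept barcodes under 2000 UMIs. Plin1, which coats the lipid droplet and was not used by the definition, was seen in 42.7% of the droplets and in 3.295% of the other barcodes. Lep, which encodes leptin, was seen in 23.3%.

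**Figure D1:**
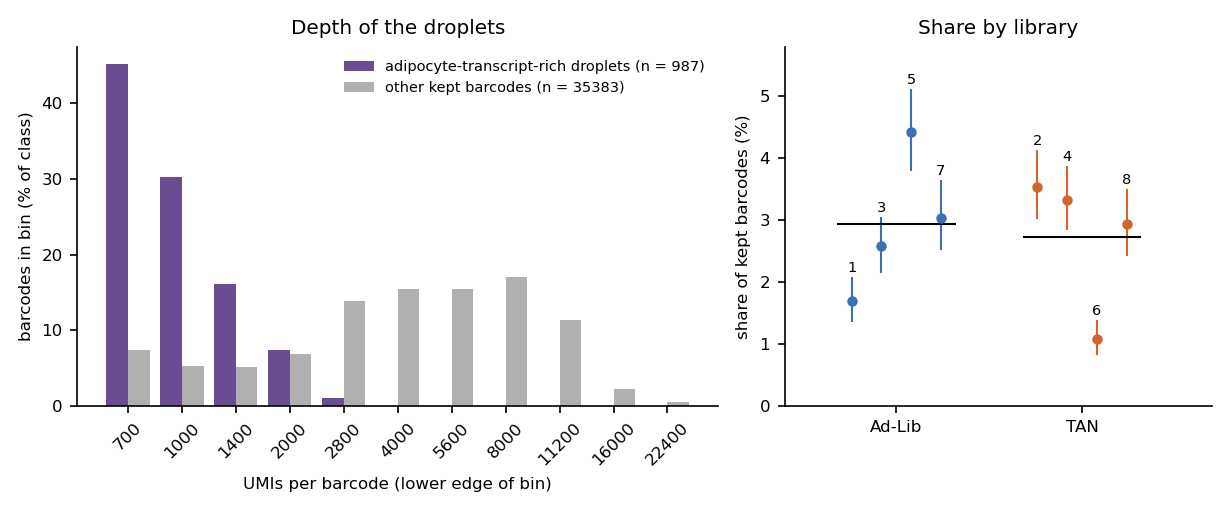
Left, share of each class of barcodes (%) by UMIs per barcode, for the 987 droplets and the 35383 other kept barcodes. Right, droplets as a share of the kept barcodes of each library (points, numbered by replicate) with 95% Clopper-Pearson intervals and the group mean (line). The droplets end at 3793 UMIs, and TAN 6 at 1.08% and Ad-Lib 5 at 4.42% are the extremes of overlapping groups.

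Among the 15 genes with the highest fold over other barcodes, as a mean over libraries, Pnpla3, a lipid-droplet acyltransferase and lipase, led at 132-fold, followed by Adrb3, the beta-3 adrenergic receptor, at 106-fold. Cyp2e1 (96.4-fold), Pck1, the enzyme of glyceroneogenesis in fat (94.2-fold), and Ces1f, a carboxylesterase (93.9-fold), came next. The remainder of the first 15 were Tmem45b, Sycp3, Adipoq, Syt12, Slc7a10, Cfd, B3galt2, Plin1, Cidec and Acvr1c, the receptor chain ALK7, at 80.3 to 92.9-fold. Sycp3 and Syt12 were higher in the droplets in 7 of 8 libraries, and the other 13 in all 8. Genes whose levels follow the selected genes across barcodes are high here by construction.

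Malat1 was scarce in the droplets, and no other nuclear RNA was examined as such. Malat1, a long non-coding RNA kept in the nucleus, made up 0.0791% of their UMIs, compared with 1.64% in the other kept barcodes and 1.10% in other kept barcodes under 2000 UMIs, a depth comparator chosen after the values were seen. TAN 6 raised that comparator, with 2.17% against 0.512 to 1.09% in the other 7 libraries, while the droplets of the 8 libraries lay between 0.0342 and 0.116%. A Malat1 UMI was present in 26.6% of the droplets and in 54.7% of the similarly shallow comparator. The median mitochondrial share was 5.04% in the droplets, 3.95% in the shallow comparator and 2.48% in all other kept barcodes. Whether the droplets held whole adipocytes, fragments or free RNA was not tested.

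RNA of other cell types was measurable in the droplets. The 11 progenitor markers summed to 2922 CPM (UMIs of a gene or list scaled to the same total of UMIs) in the droplets and to 21716 CPM in other kept barcodes. Gsn, the actin-severing gelsolin, gave 2952 of their 3454 UMIs in the droplets, and Dcn (decorin) gave 161. The endothelial list gave 535 CPM against 1676, the macrophage list 258 CPM against 2429, and the B-cell list 140 CPM against 851. Pericyte and smooth muscle markers stood at 428 CPM against 547, most of it Rgs5, a pericyte regulator of G-protein signalling (368 CPM). T and NK markers had 7 UMIs in total, mesothelial markers 1, cycling markers 5 and epithelial markers 0. The defining genes Pecam1, Ptprc and Pdgfra are at 0 by definition. Erythroid (haemoglobin) RNA came next after the progenitor list, at 1356 CPM (1603 UMIs) against 1893 CPM in other kept barcodes. Most of it lay in Ad-Lib 1 and TAN 2, where it made up 0.845% and 0.296% of droplet UMIs against at most 0.0435% in the other 6 libraries.

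The 2% limit did not fall in a gap between kinds of barcode. The 119 kept barcodes just outside it (1.5 to 2%, other conditions met) had a median of 1162 UMIs, with Plin1 at 261 CPM and Retn at 1017 CPM. In the 103 droplets just inside (2 to 2.5%) these were 1086, 304 and 1377. Malat1 stood at 3590 CPM just outside and 1881 CPM just inside, and the endothelial gene Cdh5 at 409 and 208. Another 222 kept barcodes reached 2% without being members, 108 of them with a Pecam1 UMI, 10 with Ptprc, 10 with Pdgfra and 105 without Adipoq or Cidec, some failing on more than 1 count.

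Within the droplets, the share of the 4 genes ranged from 2.00 to 19.1% with a median of 4.27%, and depth did not order it. The median was 4.28% in the 446 droplets under 1000 UMIs, 4.28% in the 341 of middle depth and 4.15% in the 200 deepest. Along the share itself, Lpl, the lipase that frees fatty acids from circulating triglyceride, went from 2271 CPM in droplets at 2 to 3% to 5097 at 6% or more, and Retn, which encodes resistin, from 1538 to 3750. Over the same bands Malat1 went from 1530 to 331 CPM and Cdh5 from 171 to 5.91. Fabp4, the abundant fatty-acid carrier of adipocytes and capillary endothelium, was nearly level at 40649 to 45422 CPM.

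Adipocyte transcripts were not confined to the droplets, which held 30.8% ± 6.82 (SD, n = 4) of the 4 genes' UMIs in Ad-Lib and 29.8% ± 4.83 in TAN libraries. The 4 genes made up 4.40% of UMIs in the droplets, 0.147% in the 10999 Pecam1+ barcodes, 0.00989% in the 8877 Pdgfra+ barcodes and 0.0132% in Cd3e+ barcodes. Their proportions to each other were similar across classes but not equal. In other barcodes under 2000 UMIs Adipoq gave 2.65 and Cidec 3.22 per 100 UMIs of the 4 genes. In barcodes with a Lyz2 UMI they gave 2.79 and 4.27, against 3.56 and 3.66 in the droplets. Per 100 UMIs of the 4 genes, Adipoq gave 3.56 in the droplets, 3.10 in Pecam1+, 3.04 in Pdgfra+ and 2.95 in Cd3e+ barcodes. Retn, not used by the definition, gave 5.98, 5.90, 5.64 and 6.47, and Plin1 gave 1.25, 1.09, 1.16 and 1.12. The ratios of other genes, which cells other than adipocytes can also express, differed more between the classes. In droplets, Pecam1+ and Pdgfra+ barcodes Thrsp gave 11.9, 18.3 and 12.7, Scd1 gave 10.6, 15.6 and 66.7, Fasn gave 6.27, 6.62 and 41.5, and Lpl gave 8.12, 47.3 and 962.

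The share of droplets did not separate the groups. They numbered 87, 126, 168 and 113 in Ad-Lib 1, 3, 5 and 7, or 1.69%, 2.58%, 4.42% and 3.04% of kept barcodes. TAN 2, 4, 6 and 8 held 153, 164, 61 and 115, or 3.54%, 3.33%, 1.08% and 2.93%. The groups overlapped throughout, with 95% Clopper-Pearson intervals (counting error only) from 0.826 to 1.38% in TAN 6 and from 3.79 to 5.13% in Ad-Lib 5. Means were 2.93% ± 1.14 (SD, n = 4) in Ad-Lib and 2.72% ± 1.124 in TAN, a difference of -0.21 percentage points (exact permutation test over the 70 assignments of libraries, two-sided, p = 0.8286, where the smallest p possible is 0.0286). Without Ad-Lib 5 the difference was 0.285 points and without TAN 6 it was 0.336 points, so its sign rests on single libraries.

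Of the quality measures, the median mitochondrial share of the droplets and their pericyte RNA separated the groups. The mitochondrial median was 3.99%, 3.45%, 5.15% and 4.23% in Ad-Lib 1, 3, 5 and 7 and 5.98%, 5.55%, 5.49% and 5.51% in TAN 2, 4, 6 and 8, with no overlap. Means were 4.20% ± 0.712 and 5.63% ± 0.232. The limit on mitochondrial UMIs used in keeping barcodes cuts this share off, so it is given as description. The same shift appeared in the other barcodes under 2000 UMIs, at 2.81% ± 0.399 in Ad-Lib and 4.66% ± 0.490 in TAN. Pericyte and smooth muscle markers made up 0.0649% ± 0.0225 of droplet UMIs in Ad-Lib and 0.0250% ± 0.00559 in TAN (exact permutation p = 0.0286, adjusted p = 0.314). Library medians of depth were 982 to 1063 UMIs in Ad-Lib and 1038 to 1152 in TAN. They too are description, since barcodes under 700 UMIs were left out and 446 of the 987 droplets lay under 1000.

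Markers of 2 lineages tied to the definition moved with the groups too and are given with no test. The progenitor list made up 0.315 to 0.456% of droplet UMIs in Ad-Lib and 0.168 to 0.251% in TAN libraries, without overlap. Most of its UMIs over all droplets were Gsn. The endothelial list made up 0.0510 to 0.0956% and 0.0265 to 0.0555%, overlapping.

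Expression was compared between TAN and Ad-Lib on counts summed over the droplets of each library, with edgeR's quasi-likelihood test and Benjamini-Hochberg adjustment over all genes tested. A gene was called at adjusted p under 0.05 and at least 1.5-fold. CPM below refers to that sum. Of 12795 genes with a UMI in the droplets, 1764 passed the filter on low counts and 178 were called, a background of 10.1%. TAN was higher for 75 (4.25% of genes tested) and lower for 103 (5.84%), and the groups did not overlap at 137 of the 178. Without TAN 6 there were 153 calls. The median log2 change over all genes tested was -0.00073.

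De novo lipogenesis genes were higher in TAN droplets. Of 17 list genes in the files 13 were tested, and 9 rose in TAN, none fell, and the median log2 change was 1.504. Acly (chr11:100476353-100528000, GRCm38, minus strand), the ATP citrate lyase that makes cytosolic acetyl-CoA, was at 100.6, 105, 219 and 223 CPM in Ad-Lib 1, 3, 5 and 7 and at 1249.5, 1047, 1245 and 1194 CPM in TAN 2, 4, 6 and 8. Every TAN library exceeded every Ad-Lib library more than 4-fold. The means of 162 ± 68.2 and 1184 ± 94.9 CPM (SD, n = 4) differed by 2.75 ± 0.195 (log2 change and SE, edgeR adjusted p = 4.22e-11).

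Acaca, the acetyl-CoA carboxylase that commits carbon to fatty acids, followed with 215 to 336 CPM under Ad-Lib and 740 to 1002 CPM under TAN (log2 change 1.59 ± 0.183, edgeR adjusted p = 2.40e-07). Fasn (chr11:120805846-120824547, minus strand), the fatty acid synthase itself, was at 936, 1068, 1881 and 1592 CPM under Ad-Lib and 4195, 3276, 4239.5 and 4555 CPM under TAN. The groups were separate, and the log2 change was 1.49 ± 0.157 (edgeR adjusted p = 5.57e-08). Acly, Acaca and Fasn catalyse successive steps from citrate to palmitate.

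Further genes of the lipogenesis list rose as well. Me1 (chr9:86581371-86695953, minus strand), the cytosolic malic enzyme that yields NADPH, was at 241, 253, 357 and 431 CPM under Ad-Lib and 2003, 1348.5, 1455 and 1614 CPM under TAN, with no overlap (log2 change 2.25 ± 0.174, edgeR adjusted p = 1.76e-10). Tkt, the transketolase of the pentose phosphate pathway, was at 309 to 749 CPM and 1650 to 2023 CPM (log2 change 1.81, edgeR adjusted p = 1.41e-08). Acss2, which makes acetyl-CoA from acetate, Slc25a1, the mitochondrial citrate carrier, and Mid1ip1, which promotes acetyl-CoA carboxylase assembly, rose by 1.79, 1.504 and 1.46 on the log2 scale. Thrsp (chr7:97412938-97417730, minus strand), a small lipogenic regulator also called Spot 14, was at 1348, 2087, 3170 and 2869 CPM under Ad-Lib and 8291, 7716, 7751 and 7105 CPM under TAN (log2 change 1.63 ± 0.158, edgeR adjusted p = 1.39e-08). Pgd, Acacb, Aacs and Srebf1 were tested and not called (log2 changes of 0.90, 0.50, 0.24 and -0.04), and Mlxipl, Mcat, Pnpla3 and G6pdx did not pass the filter.

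**Figure D2:**
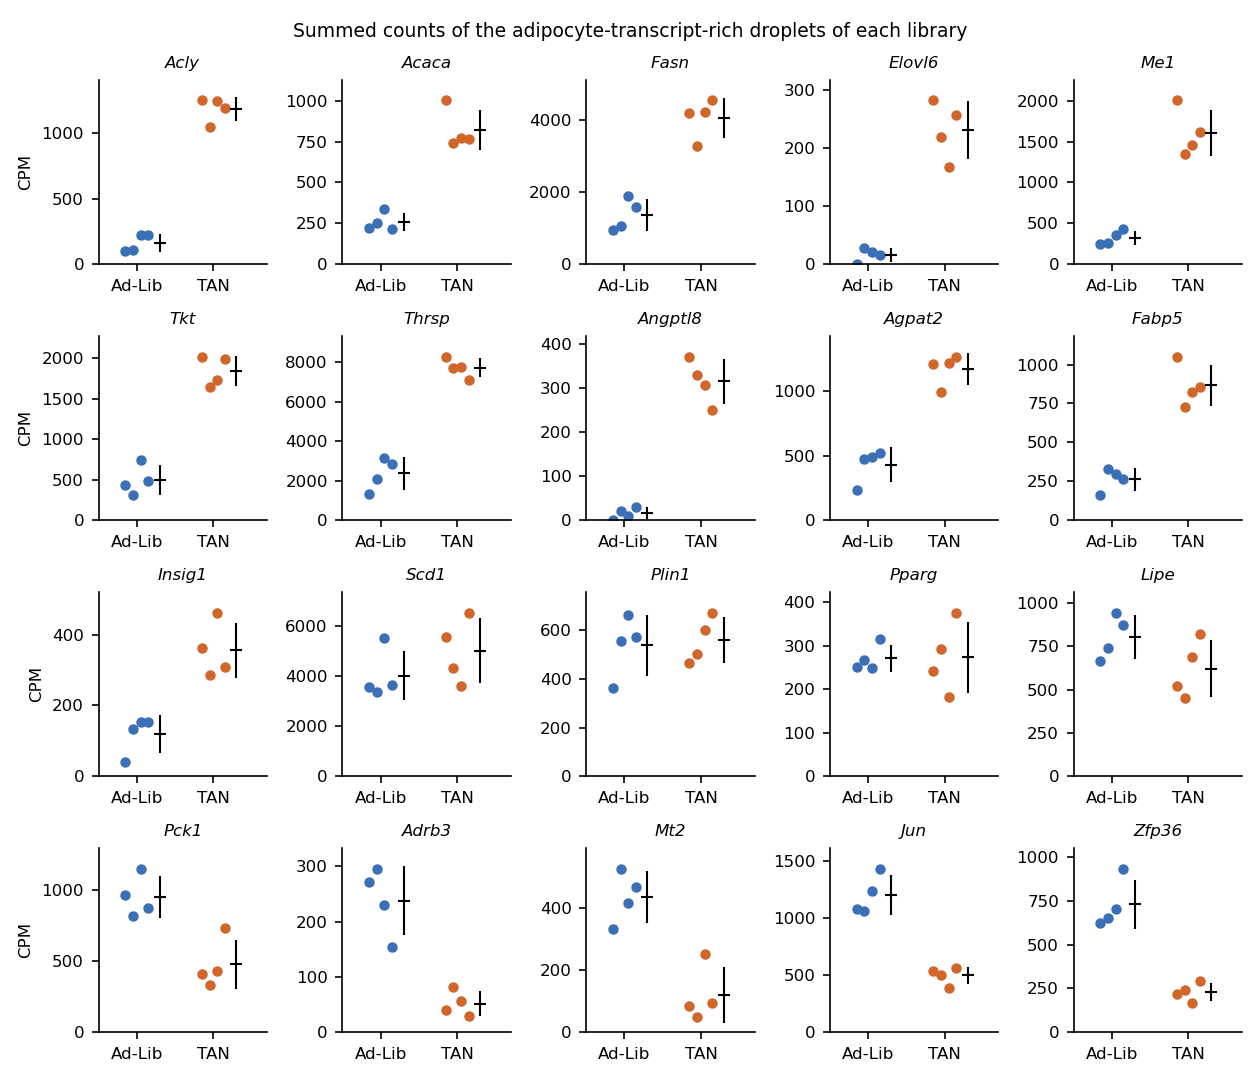
CPM of 20 named genes in the summed droplets of each library (points), with group mean and SD (black), on linear axes from 0. TAN points lie above all Ad-Lib points from Acly to Insig1 and below them from Pck1 to Zfp36, whereas Scd1, Plin1, Pparg and Lipe overlap.

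Chain elongation and desaturation changed at 2 of 7 tested genes. Elovl6 (chr3:129532355-129638495, plus strand), which lengthens palmitate to stearate, had 10 UMIs in the 4 Ad-Lib libraries together and 149 in the 4 TAN libraries. That was 0, 28.1, 20.4 and 15.4 CPM in Ad-Lib 1, 3, 5 and 7 and 283, 219, 168 and 258 CPM in TAN 2, 4, 6 and 8. The log2 change was 3.65 ± 0.363 (edgeR adjusted p = 1.87e-08). Scd2, a stearoyl-CoA desaturase, rose by 1.53 (edgeR adjusted p = 0.00119), from 46.0 ± 23.2 to 141 ± 14.1 CPM. Its relative Scd1 was at 3358 to 5489 CPM under Ad-Lib and 3596 to 6515 CPM under TAN, which overlapped (log2 change 0.25 ± 0.159, edgeR adjusted p = 0.336).

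Triglyceride assembly and the lipid-droplet coat divided. Of 14 tested genes 5 rose, 2 fell and the median log2 change was 0.25. The 14 include the selected gene Cidec, which was not called and is description only (-0.10). Agpat2, which adds the second acyl chain to glycerol phosphate, went from 430.3 ± 134 to 1172 ± 122 CPM (log2 change 1.35 ± 0.171, edgeR adjusted p = 1.30e-06), and Ad-Lib 1 was low within its group at 231 CPM. Gpam and Gpd1, which act at and before the first acylation, rose by 0.96 and 0.69, and Dgat2, the last enzyme, by 0.66 (edgeR adjusted p = 0.0426). The coat proteins differed from each other. Plin2 rose by 1.118 from 377 ± 94.3 to 863 ± 69.2 CPM, Plin4 fell by 0.79 on the log2 scale from 1338.5 ± 145 to 814 ± 130.3 CPM, and Plin1 was at 362 to 663 CPM under Ad-Lib and 466 to 671 CPM under TAN (log2 change -0.05 ± 0.172, edgeR adjusted p = 0.914). Cavin1, a caveolar coat protein, fell by 0.72, and lost its call with droplets chosen at a share of the 4 genes of at least 5% (-0.75, edgeR adjusted p = 0.0975) and with no filter on low counts (-0.65, edgeR adjusted p = 0.0567). The Dgat2 call was lost in 10 of 18 alternative settings, including without each of Ad-Lib 1, 3 and 7 and TAN 2, 6 and 8 (0.48 to 0.94 with each library left out).

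Fatty acid uptake and binding gave 2 higher and 1 lower call among 10 tested genes. Angptl8, a secreted, insulin-responsive inhibitor of lipoprotein lipase, had 9 UMIs in Ad-Lib and 199 in TAN libraries, at 0 to 30.8 CPM and 251 to 372 CPM (log2 change 4.21 ± 0.353, edgeR adjusted p = 8.36e-10). This was the largest log2 change of any named gene. Fabp5, a fatty-acid carrier, rose by 1.63 from 262 ± 73.0 to 865 ± 135 CPM. Lrp1, a lipoprotein and signalling receptor, fell by 1.02 log2 units (edgeR adjusted p = 0.0457) with groups that overlapped, and its call was lost without each of Ad-Lib 1, 3 and 5 and TAN 2, 4 and 6 (-1.17 to -0.86). Fabp4 (log2 change 0.17 ± 0.114), Lpl (-0.15 ± 0.134) and Acsl1 (0.44 ± 0.186) were not called, and Cd36, the fatty-acid translocase, was at 915 to 1015 CPM under Ad-Lib and 602 to 847 CPM under TAN, short of 1.5-fold (log2 change -0.45, edgeR adjusted p = 0.0427).

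Sterol synthesis was thinly sampled, with 5 of 25 genes tested, of which 3 rose. Insig1, the sterol-regulated anchor of SCAP and SREBP in the endoplasmic reticulum, went from 120.1 ± 54.1 to 355 ± 77.7 CPM (log2 change 1.37 ± 0.234, edgeR adjusted p = 0.000116). Pmvk, a mevalonate pathway kinase, and Sc5d, a late sterol desaturase, rose by 1.28 and 1.18, the second not called without Ad-Lib 7 (1.04 to 1.40 with each library left out). Hmgcs1 and Acat2 gave 0.46 and 0.64 and were not called.

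The 20 metabolic elasticity genes, a published set of feeding-responsive genes that the study followed in whole sWAT, overlap the lists above. Of them 11 were tested, 10 rose and the median log2 change was 1.79. Because the study examined this set in sWAT of mice on the same schedules, its direction here is not independent evidence. In these same single-cell libraries the study also reported Fasn, Me1 and Elovl6 higher under TAN. It did so in a cluster with adipocyte genes such as Adipoq, Fasn and Acly, named committed preadipocytes. How far that cluster and the droplets share barcodes was not examined. Lep, its remaining tested member, was at 121 to 296 CPM under Ad-Lib and 213 to 486 CPM under TAN (log2 change 0.39 ± 0.236, edgeR adjusted p = 0.309).

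Insulin signalling, glucose uptake and glycogen genes were mostly not called, where 10.1% of all tested genes were called. Pck1, whose transcription insulin represses, was at 966, 815, 1147 and 869 CPM under Ad-Lib and 412, 331, 434 and 730 CPM under TAN (log2 change -1.09 ± 0.187, edgeR adjusted p = 0.000121), the 1 call of 10 tested genes in that list. Slc2a4, the insulin-regulated glucose transporter GLUT4, was at 45.9 to 90.5 CPM under Ad-Lib and 92.5 to 140.0 CPM under TAN, separate groups that did not pass the test (log2 change 0.81 ± 0.312, edgeR adjusted p = 0.0939). Ppp1r3b, a subunit that directs protein phosphatase 1 to glycogen, rose from 23.7 ± 4.74 to 134 ± 64.6 CPM (log2 change 2.40 ± 0.413, edgeR adjusted p = 0.000124), the 1 call among 6 glycogen genes.

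Lipolysis gave a single call of 12 tested genes, where 10.1% of all tested genes were called. Adrb3, the receptor through which noradrenaline starts lipolysis in mouse adipocytes, was at 272, 295, 229 and 154 CPM under Ad-Lib and 39.7, 82.8, 56.0 and 29.5 CPM under TAN. The highest TAN value lay below the lowest Ad-Lib value, and the gene fell by 2.19 log2 units (SE 0.302, edgeR adjusted p = 4.85e-06). The lipases Pnpla2 and Lipe gave -0.11 ± 0.140 and -0.48 ± 0.168 and were not called (edgeR adjusted p = 0.685 and 0.0621), though Lipe was without TAN 8 (-0.63).

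Adipokines and secreted or lipid-linked proteins fell at 3 of 12 tested genes, with none higher. The 12 include the selected genes Adipoq and Cfd, which were not called and are description only. Nnat, a small endoplasmic reticulum proteolipid, fell by 1.05, Sncg, a synuclein enriched in adipocytes, by 0.65, and Apoe, the lipoprotein component, by 0.60 log2 units (edgeR adjusted p = 0.000121, 0.00663 and 0.000725). Leaving out TAN 2 ended the Sncg call (-0.79 to -0.45 with each library left out), and leaving out any of replicates 1, 2, 5 and 8 ended that of Apoe (-0.64 to -0.54). Retn was at 2133 to 2930.3 CPM under Ad-Lib and 2609.5 to 3124 CPM under TAN (log2 change 0.18 ± 0.123, edgeR adjusted p = 0.377). For the selected genes Adipoq, Car3, Cfd and Cidec the log2 differences, as description, were -0.21, -0.03, -0.21 and -0.10.

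Of 11 tested adipogenic regulators 3 fell and none rose, with a median of -0.59. They were the transcription factors Klf9 (-1.85 ± 0.271, edgeR adjusted p = 1.28e-05), Cebpd (-1.38 ± 0.301, edgeR adjusted p = 0.00232) and Klf4 (-1.36 ± 0.313, edgeR adjusted p = 0.00396). With droplets chosen at a share of the 4 genes of at least 1%, Klf4 gave -0.55 and lost its call (edgeR adjusted p = 0.208). Klf9 is also a glucocorticoid target, and Cebpd and Klf4 act early in differentiation. In Pdgfra+ barcodes under Ad-Lib these genes stood higher, at 456 CPM for Klf9, 893 CPM for Cebpd and 2715 CPM for Klf4 against 246, 179 and 125 CPM in the droplets. The progenitor list, mostly Gsn in the droplets, fell from a mean of 0.393% to 0.203% of droplet UMIs between Ad-Lib and TAN. Over all droplets Gsn stood at 2497 CPM, against 2888 CPM in other kept barcodes under 2000 UMIs. Dcn stood at 136 CPM against 2173 CPM. What part progenitor RNA had in these falls was not tested. Pparg, the master regulator of fat cells, was at 250 to 315 CPM under Ad-Lib and 182 to 376 CPM under TAN (log2 change -0.01 ± 0.191, edgeR adjusted p = 0.993). Cebpa, its partner in mature adipocytes, gave -0.59 ± 0.211 (edgeR adjusted p = 0.0714), and was called without Ad-Lib 1 (-0.71) or without TAN 8 (-0.80).

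Thermogenic and oxidative genes gave no call by edgeR. Ucp1, the uncoupling protein of brown and beige fat, had no UMI in the droplets of any library, which allows up to 5.28 CPM over the Ad-Lib droplets and 4.88 CPM over the TAN droplets (3 counts, counting error only). Of 26 thermogenic genes 1, Cox8b, passed the filter (log2 change -0.66, edgeR adjusted p = 0.207). None of 14 tested fatty acid oxidation genes was called, with a median log2 change of -0.14. Of the 12 tested mitochondrially encoded genes 11 had a log2 change above 0 and none reached 1.5-fold (median 0.32, highest 0.55 for mt-Atp8, edgeR adjusted p = 0.0457), and these genes make up the mitochondrial share given above. Only 1 of 21 core clock genes, Tef, was tested (log2 change -0.58, edgeR adjusted p = 0.243).

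Many immediate early genes were lower in TAN. Of 16 tested genes of this list, which also holds heat shock genes, 8 fell, none rose and all 16 log2 changes were below 0, with a median of -0.78. Zfp36, which destabilises inflammatory mRNAs, was at 624, 653, 703 and 931 CPM under Ad-Lib and 218, 239, 168 and 295 CPM under TAN, fully separate (log2 change -1.69 ± 0.182, edgeR adjusted p = 7.98e-08). Jun, an AP-1 subunit, went from 1200.3 ± 172 to 498 ± 74.4 CPM (log2 change -1.31 ± 0.148, edgeR adjusted p = 2.09e-07). Fosb fell by 2.01, Egr1 by 1.47, Junb by 1.29, Fos by 1.08, Jund by 0.89 and Ier2 by 0.71 on the log2 scale. With droplets chosen at a share of at least 5%, Egr1 gave -0.88 and lost its call (edgeR adjusted p = 0.105). In Pdgfra+ barcodes under Ad-Lib Jun stood at 3921 CPM, Fosb at 2191 CPM and Zfp36 at 1685 CPM, against 1200.3, 365 and 728 CPM in the droplets. The lower progenitor and pericyte shares of droplet UMIs in TAN run beside these falls too (means of 0.393% and 0.203% for progenitor and 0.0649% and 0.0250% for pericyte and smooth muscle markers), and their part was not tested. The immediate early genes Atf3, Klf2, Klf6 and Dusp1 were not called, with log2 changes of -0.84, -0.57, -0.52 and -0.57 (edgeR adjusted p = 0.0575, 0.343, 0.117 and 0.234). The heat shock genes Hspa8, Hsp90aa1, Hspb1 and Dnajb1 were not called, with log2 changes of -0.64 to -0.04.

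Ubb and the metallothioneins Mt1 and Mt2, outside that list, fell too. Ubb, a polyubiquitin gene, was at 2042, 2445, 1952 and 2715 CPM under Ad-Lib and 679, 896, 881 and 877 CPM under TAN (log2 change -1.53 ± 0.137, edgeR adjusted p = 2.88e-09). Mt2 and Mt1, metal-binding proteins induced by zinc and glucocorticoids, fell by 2.22 and 1.26 log2 units (edgeR adjusted p = 3.93e-07 and 1.86e-06). With Klf9 they were the 3 calls among 5 tested genes of the glucocorticoid and metallothionein list. Tsc22d3, a widely used glucocorticoid target, gave -0.07 and was not called. Gapdh, a glycolytic enzyme often used as a reference gene, rose by 1.29 from 658 ± 76.3 to 1704 ± 228 CPM (edgeR adjusted p = 1.08e-07). Ubb, Gapdh and Fabp5 have close copies in the genome, and how reads were split among copies was not checked.

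Extracellular matrix genes fell at 3 of 6 tested. Dcn (decorin) fell by 1.45, Col3a1 (collagen III) by 0.94 and Sparc by 0.60 log2 units (edgeR adjusted p = 0.00193, 0.0478 and 0.0111). The 4 tested progenitor markers all fell (Gsn by 1.01 and Ly6a by 1.02, beside Dcn and Col3a1), and Rgs5, the only tested pericyte marker, fell by 1.48. The endothelial genes Kdr, Flt1 and Cldn5 gave -0.86, -0.66 and -1.08 and were not called. Those falls run beside the lower progenitor and pericyte UMI shares given above, and the part of other cells' RNA in them was not tested. Dcn gave -0.75 with droplets chosen at a share of at least 1% and lost its call (edgeR adjusted p = 0.241). The Sparc call was lost in 9 of 18 alternative settings, among them when any of replicates 1, 2, 6 and 7 was left out (-0.72 to -0.45) and without droplets that held other lineage genes. Col3a1 lost its call when any of replicates 2, 4, 5 and 7 was left out (-1.13 to -0.65). With droplets that hold any UMI of Cdh5, Dcn, Lyz2, Cd3e, Cd79a or Rgs5 left out, 128 of the 178 called genes were still tested, all 128 had the same sign, and 94 were called.

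**Figure D3:**
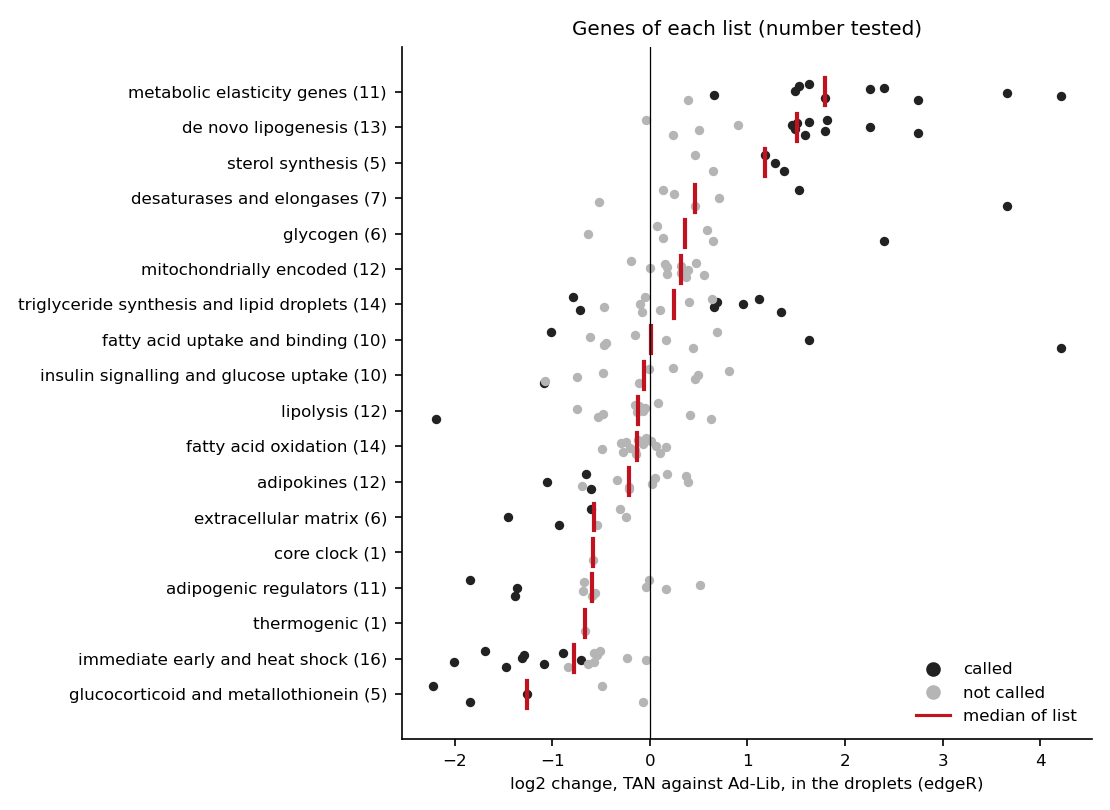
Log2 change between TAN and Ad-Lib of each tested gene (points, black if called) in the 18 gene lists, with each list's median (red) and its number of tested genes. The selected genes Adipoq, Cfd and Cidec are among the points. Lipogenic, elasticity and sterol lists have medians of 1.18 to 1.79, and the immediate early and metallothionein lists medians of -0.78 and -1.26.

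Whether these changes differed from those in other cells was tested as an interaction, with a term for each library, against kept barcodes with a Pdgfra UMI (8877, progenitors by that marker) and with a Pecam1 UMI (10999, endothelial by that marker). Both contrasts use the same droplet sums. Against Pdgfra+ barcodes 102 of 11300 genes (0.903%) were called, 43 with the higher change in the droplets (0.381%) and 59 with the lower (0.522%). Of the 178 genes called in the droplets 63 were among them. Leaving out TAN 2 gave 58 calls, Ad-Lib 3 gave 59 and Ad-Lib 7 gave 65.

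No lipogenic enzyme named here was called within Pdgfra+ barcodes. Acly stood at 67.1 CPM under Ad-Lib and 72.6 CPM under TAN there, a log2 change of 0.08 ± 0.0718, so that the change in the droplets exceeded it by 2.76 ± 0.259 (edgeR adjusted p = 1.84e-22). The excess was 3.304 ± 0.454 for Elovl6, 3.27 ± 0.615 for Angptl8, 2.12 ± 0.243 for Me1 and 1.23 ± 0.196 for Fasn, each called. The lipogenesis list had 8 such calls among 17 tested genes, none lower, and the immediate early list had 7 lower among 23 and none higher. Within Pdgfra+ barcodes Klf9 and Mt2 were also called lower, at -0.72 and -0.89 (edgeR adjusted p = 0.0286 and 0.0495), and Fosb gave -0.51, short of 1.5-fold (edgeR adjusted p = 0.0495). For Klf9, Cebpd, Klf4 and Mt1 no difference from the Pdgfra+ change was called (edgeR adjusted p = 0.0665, 0.106, 0.186 and 0.698). For Thrsp the log2 changes were 1.75 ± 0.214 in Pdgfra+ barcodes and 1.63 in the droplets (difference -0.06 ± 0.179, edgeR adjusted p = 0.995). Its level in Pdgfra+ barcodes was 6.81 CPM under Ad-Lib and 23.0 CPM under TAN. Per 100 UMIs of the 4 selected genes that was 6.93 and 22.2, beside 5.21 and 17.8 in the droplets, so a change in the progenitors cannot be told apart from adipocyte RNA in their barcodes.

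Fabp4 and Cd36 had a lower change in the droplets than in Pdgfra+ barcodes, with log2 changes of 0.17 and -0.45 in the droplets. The study reported both genes increased under TAN in adipocyte precursor clusters of these libraries. In Pdgfra+ barcodes Fabp4 rose from 792 to 1610.5 CPM and Cd36 from 66.7 to 130.2 CPM, whereas in the droplets neither was called. The droplet changes lay below the Pdgfra+ changes by 0.74 and 1.33 log2 units (SE 0.140 and 0.230, edgeR adjusted p = 5.07e-05 and 4.44e-06).

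Against Pecam1+ barcodes fewer differences were called, 35 of 11685 genes (0.3%), 21 with the higher change in the droplets (0.18%) and 14 with the lower (0.12%). They included 26 of the 178 genes, and 20 were called in both contrasts. Acly exceeded its Pecam1+ change by 2.30 ± 0.256 (edgeR adjusted p = 2.90e-15), and Fabp5, Tkt, Gapdh, Insig1 and Scd2 exceeded theirs by 1.596, 1.07, 1.06, 1.30 and 1.62, each called. Thrsp exceeded its own by 0.89 (edgeR adjusted p = 0.0479). For Me1, Fasn, Angptl8 and Ppp1r3b no difference was called, and their log2 changes within Pecam1+ barcodes were 2.17, 1.61, 3.87 and 2.40 against 2.25, 1.49, 4.21 and 2.40 in the droplets. The differences for Elovl6, Acaca and Agpat2 were not called either, at 1.935, 0.67 and 0.14 (edgeR adjusted p = 0.0621, 0.291 and 0.967). Within Pecam1+ barcodes Me1 and Ppp1r3b were called (edgeR adjusted p = 0.0451 and 0.0270), and Fasn and Angptl8 were not (both 0.0763). The lipogenesis list had 4 calls among 17 tested genes, none lower, and the immediate early list 1 lower among 23. Mt1 and Mt2 were called lower within Pecam1+ barcodes, with log2 changes of -1.09 and -1.34 (edgeR adjusted p = 0.0482 and 0.0264). No difference from these changes was called in the droplets for Mt1 (-0.09) or Mt2 (-0.83, edgeR adjusted p = 0.277). Leaving out Ad-Lib 5 gave 20 differences and leaving out TAN 8 gave 23.

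**Figure D4:**
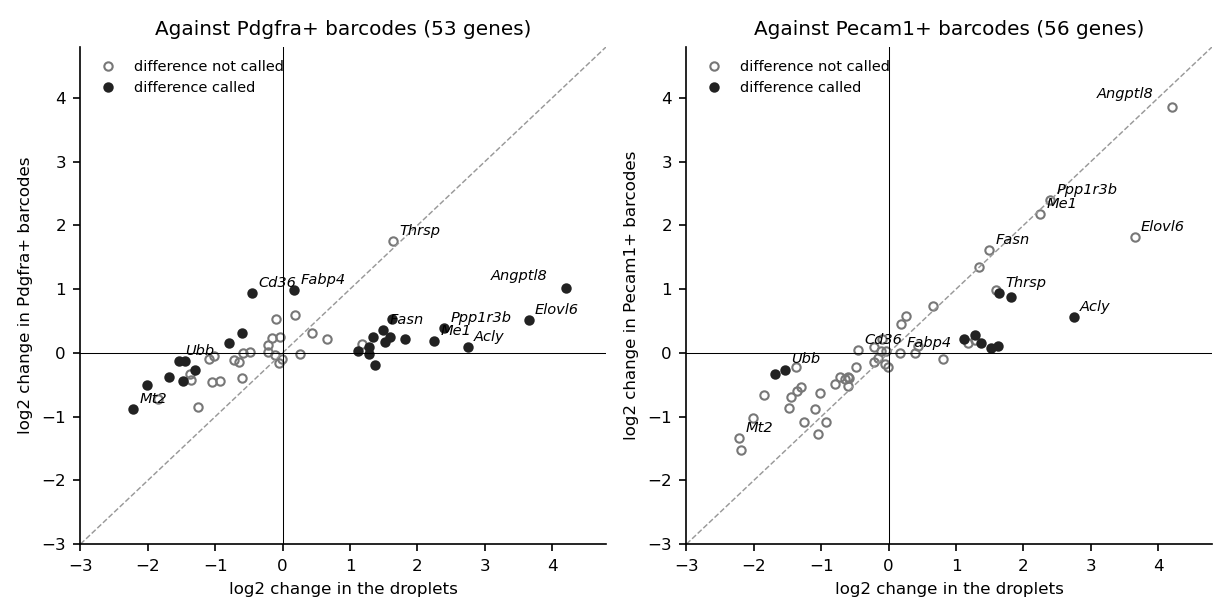
Log2 change between TAN and Ad-Lib of the named genes in the droplets (x) against that in Pdgfra+ barcodes (left, y) and in Pecam1+ barcodes (right, y). Filled points mark a called difference between the changes, and the dashed line marks equal change. Acly, Me1 and Fasn lie between 0.08 and 0.35 on the Pdgfra+ axis, whereas Me1, Fasn, Angptl8 and Ppp1r3b lie near the dashed line on the Pecam1+ axis.

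At these genes the levels in droplets and Pecam1+ barcodes were far apart, and the ratios to the 4 selected genes were closer. Me1 stood at 320 and 1605 CPM in Ad-Lib and TAN droplets and at 15.1 and 64.6 CPM in Pecam1+ barcodes. Per 100 UMIs of Adipoq, Car3, Cfd and Cidec, Me1 gave 0.706 in Ad-Lib and 3.71 in TAN droplets, 1.00 and 4.69 in Pecam1+ barcodes, and 1.05 and 5.18 in other barcodes under 2000 UMIs. Fasn gave 3.02 and 9.38 in the droplets, 3.13 and 9.99 in Pecam1+ barcodes. Angptl8 gave 0.0335 and 0.724, then 0.0482 and 0.628. Pck1 gave 2.11 and 1.12, then 1.74 and 1.08, and Adrb3 gave 0.529 and 0.119, then 0.376 and 0.132. Ppp1r3b gave 0.0525 and 0.316 in the droplets and was higher in Pecam1+ barcodes, at 0.108 and 0.630. A further 5 genes were also higher per selected-gene UMI in Pecam1+ barcodes than in the droplets. Acly gave 0.356 and 2.72 in the droplets and 4.08 and 6.75 in Pecam1+ barcodes, Elovl6 0.0349 and 0.541 against 0.277 and 1.05, and Tkt 1.096 and 4.28 against 4.34 and 8.95. Acaca gave 0.569 and 1.89 against 1.46 and 3.13, and Thrsp 5.21 and 17.8 against 12.2 and 24.3. In Pdgfra+ barcodes Me1, Fasn and Acly gave 24.8, 39.9 and 71.8 in Ad-Lib and 25.7, 46.4 and 69.9 in TAN libraries. Other genes lay nearer the droplets there, with Thrsp as given above, Retn at 4.91 and 6.62 (5.30 and 6.55 in the droplets) and Pck1 at 1.48 and 1.10 (2.11 and 1.12).

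**Figure D5:**
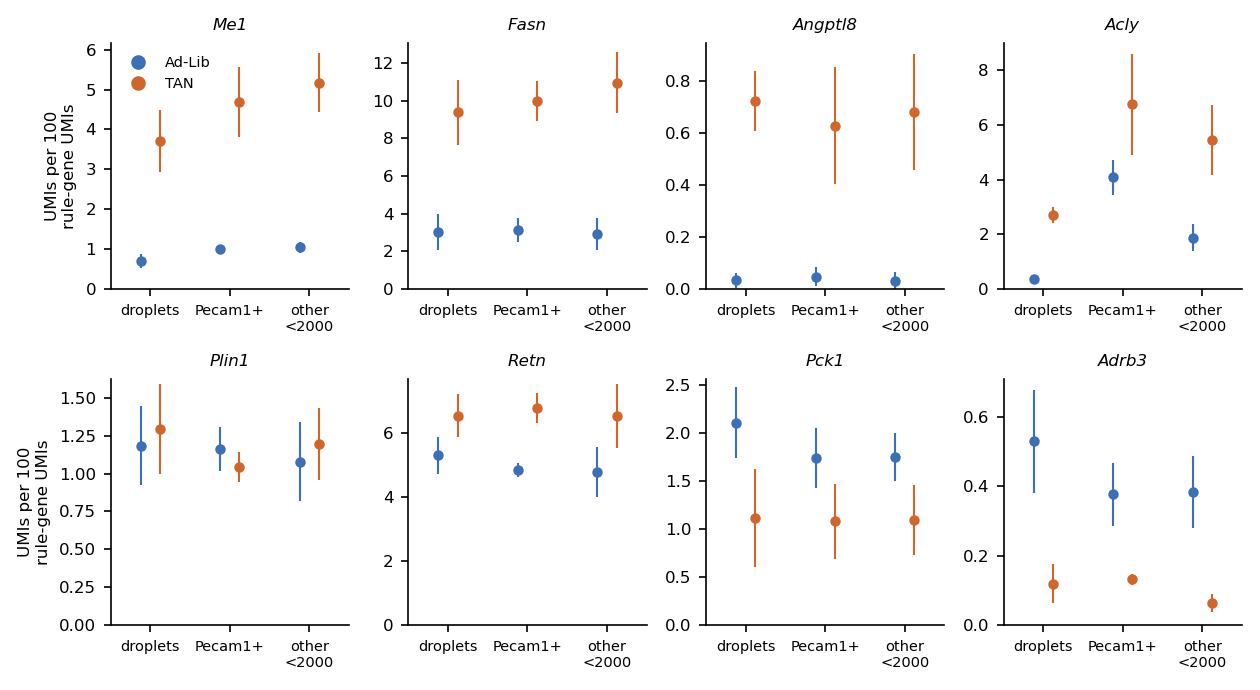
UMIs of 8 genes per 100 UMIs of Adipoq, Car3, Cfd and Cidec, as mean and SD over 4 Ad-Lib (blue) and 4 TAN (orange) libraries, in the droplets, in Pecam1+ barcodes and in other kept barcodes under 2000 UMIs. The TAN mean lies above the Ad-Lib mean for Me1, Fasn, Angptl8 and Acly and below it for Pck1 and Adrb3 in all 3 classes, and Acly is higher per selected-gene UMI outside the droplets.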

How the data were processed

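Inguinal fat was digested with collagenase, and the pelleted SVF, after lysis of red blood cells, was captured on the 10x Genomics 3' v3 platform, 1 library per sample. The authors deposited raw UMI counts per gene and barcode, 1 matrix per library, made with Cell Ranger on mm10 (GRCm38), with no normalization. The study's methods and the submitters' processing notes name Cell Ranger 3.0.2, whereas the file headers name 6.0.1. The matrices hold called cells only, with at least 500 UMIs a barcode. Of 32285 gene identifiers 32158 matched GENCODE release M21 (GRCm38), which gave the coordinates.

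Barcodes were kept and members chosen as the report states. The members, gene lists and marker lists were chosen with earlier results of these data known. Counts of the members were summed per library, at least 10 members each, since the library and not the cell is the replicate, and tested with edgeR 4.0.16 (R 4.3.3; TMM, filterByExpr, glmQLFit and glmQLFTest, 8 libraries, no covariate). SE is the log2 change divided by the square root of the F statistic. Shares and quality measures were compared by exact permutation tests with scipy 1.17.1. DESeq2 1.42.0 was an alternative. Doublet scores came from simulated doublets, with 0.8% per 1000 barcodes removed in an alternative only. The edgeR step was tested on simulated data.

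Genes named in the text are the 12 calls with lowest adjusted p and separate groups, up to 4 called genes of each list by adjusted p, a set chosen by role whether called or not (Plin1, Lep, Pparg, Fasn and others), the 4 selected genes, and the 15 genes with the highest fold over other barcodes among those with at least 20 UMIs. Further genes of a list are named with their values. Depth limits the low genes: 3 counts correspond to between 14.6 and 42.0 CPM in a single library. Intervals are 95% Clopper-Pearson.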

Additional observations from a re-analysis of the deposited data

Results flagged for a closer look

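In groups of 4 libraries, 130 were examined for a library far from the other 3, of which chance flags about 1 in 20, and 11 were found. The median mitochondrial share of the droplets was 5.98% in TAN 2 against 5.49 to 5.55% in the other TAN libraries. Erythroid markers (haemoglobin) made up 0.845% of droplet UMIs in Ad-Lib 1 against 0.00913 to 0.0277% in the other Ad-Lib libraries, and 0.296% in TAN 2 against 0.00487 to 0.0435%. TAN 8 droplets held 37.0% of the 4 selected genes' UMIs against 26.8 to 28.1%. Among genes, Ubb was low in TAN 2 (679 CPM against 877 to 896), Agpat2 low in Ad-Lib 1 (231 against 478 to 523), Cidec low in Ad-Lib 1 (1398 against 1717.5 to 1754), Dcn high in Ad-Lib 7 (338 against 153 to 169), Pnpla2 high in TAN 6 (1455 against 1011.5 to 1024), Acaca high in TAN 2 (1002 against 740 to 769.5) and Scd1 high in Ad-Lib 5 (5489 against 3358 to 3630.2).

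Of the 12 genes with the smallest adjusted p and separate groups, 11 also changed differently in the droplets than in Pdgfra+ barcodes by the interaction test of edgeR. The change in the droplets was higher on the log2 scale by 2.76 for Acly, 2.12 for Me1, 3.27 for Angptl8, 1.72 for Tkt, 3.304 for Elovl6, 1.23 for Fasn, 1.36 for Gapdh and 1.16 for Fabp5. It differed by -1.34 for Ubb, -1.28 for Zfp36 and -0.99 for Jun. For Thrsp, the remaining gene, no difference was called.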

How the results depend on the processing

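No paired analysis was possible because the groups share no replicate numbers. The difference in the droplets' share was -0.21 points and ranged from -0.63 to 0.336 with each library left out; it reversed without Ad-Lib 5 (0.285) and TAN 6 (0.336), at a 20% mitochondrial limit (0.379), without droplets holding UMIs of 6 further lineage genes (0.434), over barcodes without Ptprc (0.259) and thinned to 1000 UMIs (0.169, against 0.157 for the same barcodes not thinned), with exact permutation p of 0.371 or more. The 178 calls in the droplets became 57 at a 5% limit (605 genes tested), 109 with each droplet thinned to 700 UMIs, 113 by DESeq2 and 130 to 183 with each library left out. Differences from Pdgfra+ barcodes numbered 102 and 58 to 111 with each library left out (59 without Ad-Lib 3 and 65 without Ad-Lib 7), and differences from Pecam1+ barcodes 35 and 20 to 51 (23 without TAN 8). Of the 39 called genes named by the rule for named genes, 28 kept the call in every setting that tested them, 11 lost it in at least 1 (Apoe, Cavin1, Col3a1, Dcn, Dgat2, Egr1, Klf4, Lrp1, Sc5d, Sncg and Sparc) and none reversed; other genes in the text were not followed one by one. Signs turned for genes not called: Plin1 (0.0067 with no filter, 0.018 at a 1% limit, and 0.073, 0.032 and 0.014 without Ad-Lib 5, TAN 2 and TAN 4), Pparg (0.052 with no filter, and 0.0026, 0.051, 0.061 and 0.104 without Ad-Lib 3, Ad-Lib 7, TAN 2 and TAN 6) and Car3 (0.020 with no filter, and 0.0070, 0.0084 and 0.0027 without Ad-Lib 3, TAN 4 and TAN 8). With each library left out the log2 change ranged from -0.17 to 0.073 for Plin1, -0.14 to 0.104 for Pparg and -0.055 to 0.0084 for Car3. The causes were not tested.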

Other observations

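Glycolysis and the entry of pyruvate into mitochondria, a group assembled after its values were seen and given as description, ran with the lipogenic genes. Of 27 genes of this group 19 were tested, 10 were called higher in TAN, none lower, all 19 log2 changes were above 0 and the median was 0.63. Besides Gapdh, the glycolytic enzymes Aldoa, Eno1, Pkm and Ldha rose by 0.88, 1.19, 1.02 and 0.70 on the log2 scale. Mpc1 and Mpc2, which together form the mitochondrial pyruvate carrier, went from 673 ± 126 to 1503 ± 250 CPM and from 664 ± 75.1 to 1318 ± 158 CPM (SD, n = 4; edgeR adjusted p = 8.59e-06 and 2.59e-05). Pdha1 and Pdhb, subunits of pyruvate dehydrogenase, rose by 0.73 and 0.88, and Taldo1, the transaldolase of the pentose phosphate pathway, by 0.63. The other 9 genes tested (Hk2, Gpi1, Tpi1, Pgk1, Pgam1, Ldhb, Dlat, Pcx and Pgls) were not called.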
